A study of Drosophila melanogaster with 2 samples.

Results

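Chromosome arm 2L of Drosophila melanogaster carried 234 of the 1623 Huckebein peaks that the authors listed from embryos of 8 to 16 h. The set holds every row of the deposited list whose sequence name is exactly 2L, and it makes up 14.4% of the list. Peaks on the separate heterochromatic sequence 2LHet are not part of it. The measurement was chromatin immunoprecipitation followed by sequencing (ChIP-seq), in which protein is cross-linked to DNA, the chromatin is sheared, an antibody pulls down the DNA bound by 1 protein, and that DNA is sequenced. A peak is a region with more ChIP reads than its surroundings or the reference chromatin.

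The labels give 1 ChIP sample of embryos collected 8 to 16 h after egg laying, made with the Huckebein antibody KW3-hkb-D1, and 1 input sample of the same age. Input is the cross-linked chromatin before the antibody step. Both were fixed in 1.8% formaldehyde and received no treatment. The protocol names iso1 (y; bw cn sp) flies or transgenic flies, without saying which were used here, and whole embryos were collected, so binding in any 1 cell type cannot be told apart from the rest. The title of the ChIP sample names replicates 1 and 2 together, and 1 list was analysed. There is therefore no replicate spread, and no difference below was tested. The read depth behind the peaks is unknown, since the list gives no counts.

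Huckebein binds DNA through zinc fingers and is the product of hkb (NCBI Gene 40549), which lies on another chromosome arm, 3R. As background, hkb is a gap gene of the terminal system: its protein is made at both poles of the blastoderm and limits there the expression of snail, a mesoderm regulator. In older embryos hkb is known for roles in endoderm, in salivary gland invagination and in some neuroblasts. The gene snail (sna, NCBI Gene 34908, Dmel_CG3956) lies on 2L, but gene positions on the build of the peak list were not used here, so no peak below is assigned to a gene. No base sequence of the build was used here either. Arm 2L is numbered from its telomere, so low positions are distal and high positions lie near the centromere. Positions are on BDGP5 and 1-based.

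The peaks of 2L ran from 183725 to 22405016, a span of 22.2 Mb. They covered 164 kb in all, which was 0.739% of this span. Peaks covered 0.848% of the span of 3L, 0.972% of 3R and 1.21% of X. Over the span, 2L had 10.5 peaks per Mb, 3L had 12.05, 3R had 13.4 and X had 17.6. Arm 2L thus had the lowest density and the lowest coverage of these 4 arms.

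The peaks of 2L were concentrated on the telomeric side. The proximal side, from the middle of the span at 11.3 Mb to the last peak, held 84 peaks, and the distal side held 150. That is 7.56 peaks per Mb on the proximal side and 13.5 on the distal side. The proximal share was 35.9% on 2L (Clopper-Pearson 95% interval 29.8 to 42.4%), 47.5% on 3L (41.5 to 53.5%), 50.7% on 3R (45.5 to 55.9%) and 47.7% on X (42.6 to 52.9%). These intervals treat peaks as independent, which neighbouring peaks are not, and cover counting error only. The distal sides of the arms were nearer to each other, with 13.5 peaks per Mb on 2L, 12.7 on 3L, 13.2 on 3R and 18.4 on X. On the proximal sides, 2L had 7.56 peaks per Mb, against 11.4 on 3L, 13.6 on 3R and 16.8 on X.

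**Figure D1:**
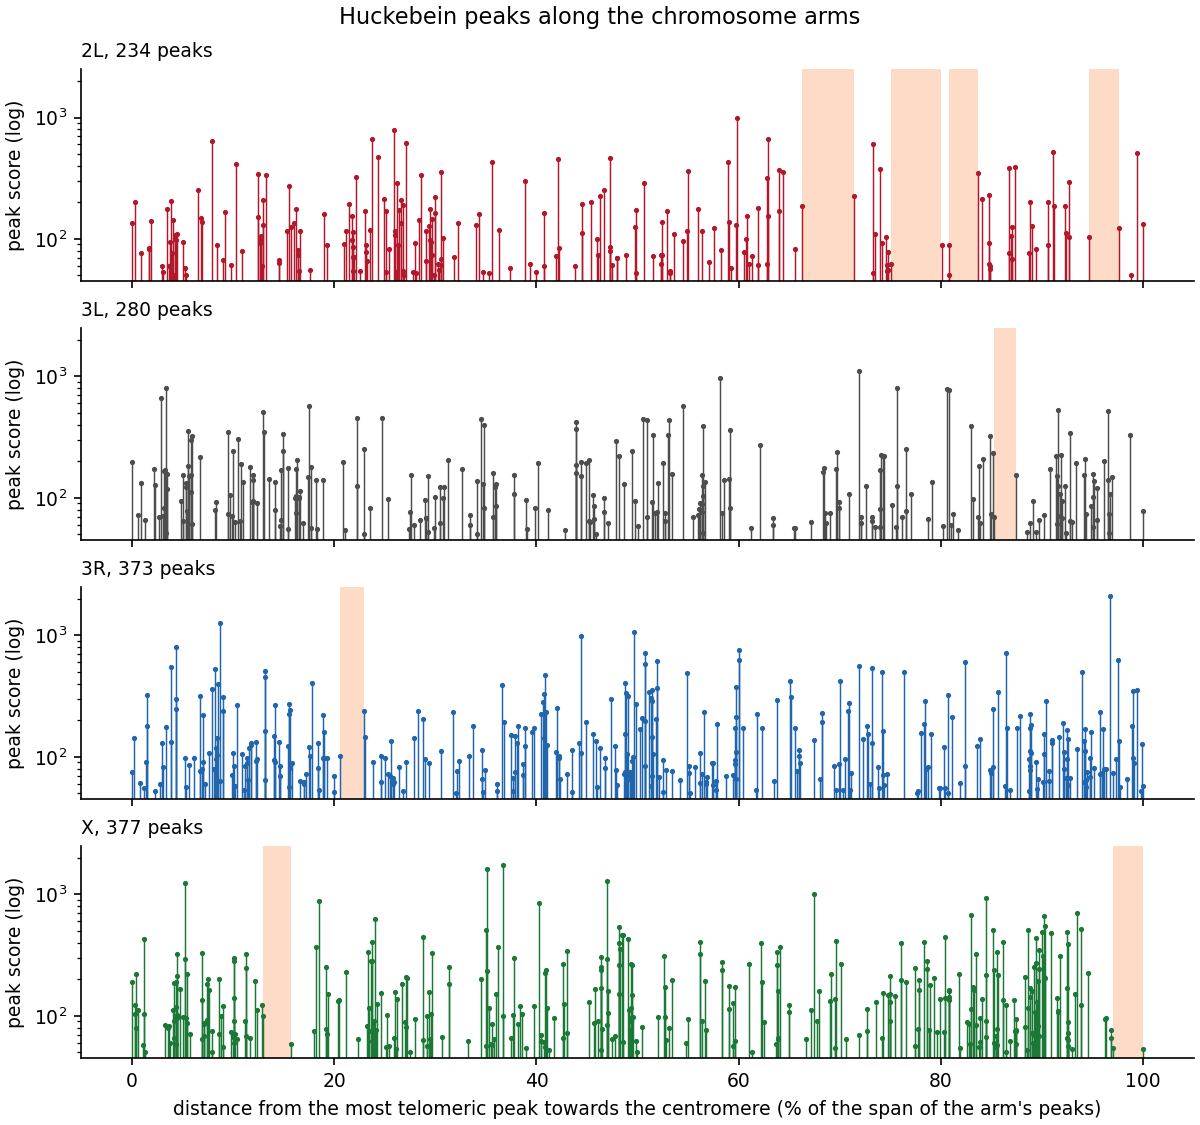
Each line is 1 Huckebein peak, placed by its distance from the most telomeric peak of its arm towards the centromere (percent of the span) and drawn up to its score on a log axis; shaded areas are stretches of 500 kb or more without a peak. The 4 shaded stretches of 2L all lie on its proximal side, as do the 1 of 3L and the longer of the 2 on X. The 1 of 3R and the shorter on X are distal.

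When the span was divided into 10 segments of equal length from the telomere, 2L held 32, 25, 52, 18 and 23 peaks in segments 1 to 5. Segments 6 to 10 held 23, 16, 12, 20 and 13 peaks. Segment 3 alone carried 22.2% of the peaks of the arm. The fullest segment held 13.9% of the peaks on 3L, 13.9% on 3R and 19.4% on X. That of X was segment 9, close to the centromere, so 2L and X were dense at different places along the arm.

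The dense part of 2L lay between 5000001 and 7000000. The bin from 5000001 to 6000000 held 24 peaks and the bin from 6000001 to 7000000 held 30, against a median of 9.5 over the 22 complete 1 Mb bins of the arm. Together these 2 bins held 54 peaks, 23.1% of the arm. The bins on either side were sparse, with 6 peaks from 4000001 to 5000000 and 6 from 7000001 to 8000000. In score and median width, these 54 peaks were close to the other 180 peaks of the arm. Their median score was 103.2, against 103.7 for the rest of 2L, and their median width was 634 bp, against 630 bp. Scores of 200 or more were held by 11 of the 54 (20.4%) and by 37 of the other 180 (20.6%). Of the 54, 17 (31.5%) had another peak within 5 kb, and of the other 180, 40 (22.2%) had one. These bins were picked for holding the most peaks, which by itself brings peaks closer together.

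Both dense bins lay on the distal side. With their peaks and their length left out, a choice made after the values were seen, 2L had 84 peaks on its proximal side, at 7.56 per Mb, and 96 on its distal side, at 10.5 per Mb. The distal side then exceeded the proximal one by 2.98 peaks per Mb, against 5.94 with all peaks. With the 2 densest bins of each other arm left out likewise, this excess was 0.942 per Mb on 3L, -0.368 on 3R and 2.47 on X. The excess left on 2L was thus near that of X. Peak numbers per 1 Mb bin had a variance of 4.91 times their mean on 2L, 2.35 on 3L, 2.07 on 3R and 4.57 on X. Bins of 2L ran from 0 to 30 peaks, those of 3L from 5 to 24, those of 3R from 3 to 22 and those of X from 5 to 39.

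**Figure D2:**
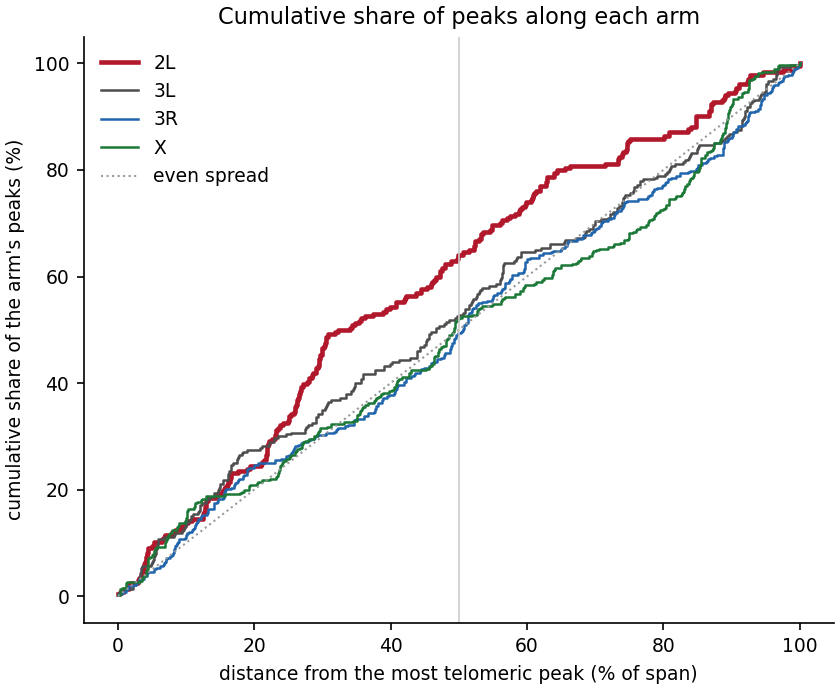
The cumulative share of each arm's peaks (percent) is drawn against the distance from the most telomeric peak (percent of the span), with a dotted line for an even spread and a vertical line at the middle. The 2L line climbs between 20 and 30% of the span, a segment that holds 22.2% of its peaks, and then runs above those of 3L, 3R and X over the middle of the span.

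Proximal 2L had 4 stretches of 500 kb or more without a peak. The longest ran from 14909144 to 16046834 and was 1138 kb long. It was bounded distally by a peak of score 188.03 at 14908587 to 14909143 and proximally by one of score 226.71 at 16046835 to 16047572. The second, 16869705 to 17972402, was 1103 kb long, and both of its bounding peaks were low, at scores of 62.07 and 88.65. The third by length, 21214545 to 21875867, covered 661 kb between peaks of score 102.75 and 122.79. The fourth, 18142410 to 18763869, covered 621 kb. Its distal bound was a peak of score 50.19, the third lowest of the arm, and its proximal bound one of 352.08 at 18763870 to 18764566. Of the 8 bounding peaks, 4 scored below 106.58, the median of the whole list, so some of these ends would move in a stricter list.

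These 4 stretches added up to 3523 kb, or 15.9% of the span of 2L. On 3L, 1 stretch reached 500 kb (502 kb, 20184387 to 20686037, proximal), and on 3R 1 did (656 kb, 21426521 to 22082837, distal). On X there were 2, the longer of 648 kb from 21229941 to 21877694. The longer was proximal and the other distal. Only stretches between neighbouring peaks were counted, so sequence beyond the first and last peak of each arm is left out. Such stretches made up 2.16% of the span on 3L, 2.36% on 3R and 5.799% on X. The distal side of 2L had none, and its longest stretch without a peak was 392 kb, from 7351755 to 7744121. The count depended on the weaker peaks. Among peaks that scored at least the list median, stretches of 500 kb or more numbered 7 on 2L, 10 on 3L, 10 on 3R and 6 on X, and they took up 29.4% of the span on 2L, 31.8% on 3L, 24.0% on 3R and 21.04% on X. The longest stretch was then 2141 kb on 2L, against 1454 kb on 3L, 1112 kb on 3R and 1148 kb on X. Complete 1 Mb bins without any peak numbered 1 on 2L, the one from 15000001 to 16000000, and 0 on each of 3L, 3R and X.

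With stretches of 500 kb or more taken out of the length, a setting also chosen after the values were seen, 2L had 12.5 peaks per Mb. Computed the same way, 3L had 12.3, 3R had 13.7 and X had 18.6. The density of 2L was then near that of 3L and no longer the lowest of the 4 arms, and its proximal side alone had 11.1 peaks per Mb outside them. Every peak was kept while empty length was removed, so these densities rose by construction. The rise was largest on 2L, where 15.9% of the span was taken out, against 2.16% on 3L. Stretches between 250 and 500 kb were found on both sides of the arm. At a limit of 250 kb, 2L had 21 stretches, 11 on its proximal side and 10 on its distal side, adding up to 5899 and 3136 kb. At that limit 3L had 23, 3R 16 and X 16, and on 3R and X more of these were proximal than distal. The median gap between neighbouring edges was 68.1 kb on the proximal side and 40.3 kb on the distal side. Whether reads could be mapped within the long stretches, or whether the input was low there, was not tested.

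**Figure D3:**
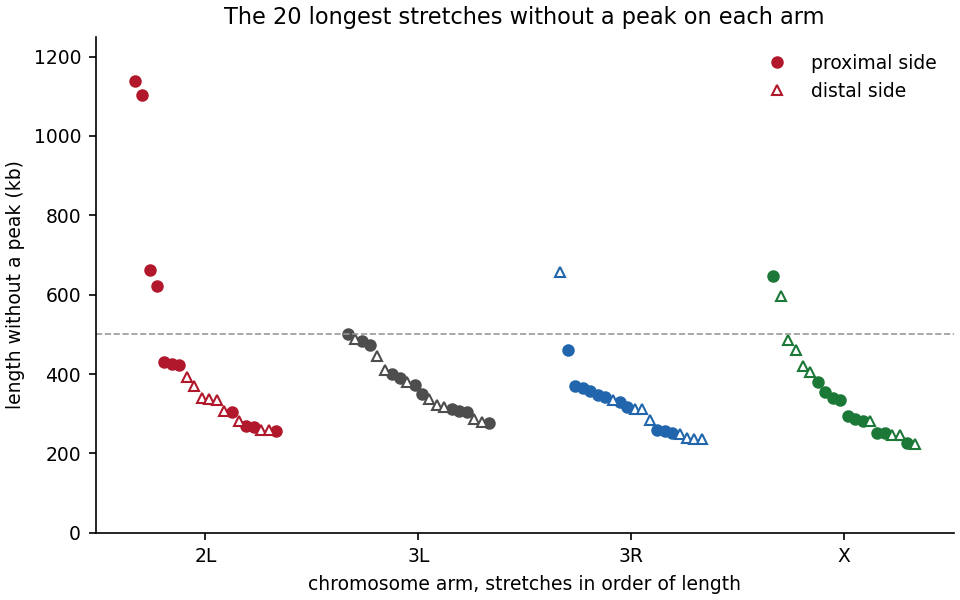
The 20 longest stretches without a peak on each arm are shown in order of length (kb), filled for the proximal and open for the distal side of the arm, with a dashed line at 500 kb. The 2 longest of 2L, at 1138 and 1103 kb, stand above every stretch of 3L, 3R and X, of which the longest is 656 kb. Only stretches between neighbouring peaks are drawn, not sequence beyond the first and last peak of an arm.

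Between the first and last of the long stretches, 14909144 to 21875867, 2L held 41 peaks in 6.97 Mb, or 5.89 per Mb. This interval was set by the stretches at its ends, so its density is low by construction. The 41 peaks fell into 3 blocks with 14.6, 17.6 and 10.6 peaks per Mb from their first to their last peak. The 189 peaks distal to all 4 stretches had 12.8 per Mb. Each block was cut at the stretches beside it, so its density is high by construction, most of all where peaks are few. The blocks therefore cannot be called denser than the distal part. The block between the 2 longest stretches held 12 peaks from 16046835 to 16869704, of which the first stood alone, 425 kb from its nearest neighbour, and the other 11 lay within 398 kb. It included 1 of the highest peaks of the arm, at 16472066 to 16472791 with a score of 607.85, but its median score was 85.3. The next block held only 3 peaks within 170 kb, from 17972403 to 18142409, with scores of 88.65, 88.73 and 50.19. The third block held 26 peaks from 18763870 to 21214544, with a median score of 118.4, and 9 of the 26 scored 200 or more. Proximal to the last long stretch came 4 peaks, from 21875868 to 22405016, with scores of 122.79, 50.43, 513.4 and 133.55.

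Although sparser, the proximal side had no lower median score. Its 84 peaks had a median score of 109.9, against 100.3 for the 150 distal peaks, and a median width of 660.5 bp, against 624.5 bp. Scores of 200 or more were held by 21 of the 84 proximal peaks (25%) and by 27 of the 150 distal ones (18%). On the other arms this share was also higher on the proximal side. It was 23.3 against 18.4% on 3L, 23.3 against 21.7% on 3R and 28.9 against 26.9% on X. Proximal and distal median scores were 94.2 and 122.0 on 3L, 98.4 and 101.1 on 3R, and 130.4 and 102.6 on X. Of the 9 peaks of 2L scoring 500 or more, 5 were proximal and 4 distal. The proximal share was 33.0% among peaks scoring under 100, 35.1% from 100 to 200, 41.03% from 200 to 500 and 55.6% from 500. The last value rests on 9 peaks. On 3L the shares of the same classes were 51.5, 37.8, 50 and 66.7%, on 3R 51.6, 47.6, 49.2 and 63.2%, and on X 44.6, 51.0, 49.4 and 50%.

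The score is the number that the peak caller wrote for each peak, with no unit stated. Its minimum was 50.07 on 2L, 50.03 on 3L, 50.02 on 3R and 50.03 on X. The lowest scores of 2L thus lie at a floor common to these arms. The middle of the 2L scores was at 103.7, with quartiles at 69.3 and 174.4. The medians were 106.8 on 3L, 101.0 on 3R and 114.55 on X. The interval of the 2L median, 92.79 to 116.3 from order statistics at 95%, takes in all 3. Scores of 200 or more were reached by 48 peaks of 2L (20.5%, Clopper-Pearson 95% interval 15.5 to 26.3%), 20.7% on 3L, 22.5% on 3R and 27.9% on X. Only the share of X lies outside this interval. Both intervals treat peaks as independent, which neighbouring peaks are not. At the low end, 35 peaks of 2L (15.0%) scored under 60, against 11.8% on 3L, 12.9% on 3R and 10.9% on X. Of the 69 peaks of the whole list that scored 500 or more, 2L held 9 (13.0%), close to its 14.4% of all peaks.

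The highest peak of the arm lay at 13475227 to 13476387, on the proximal side, with a score of 996.66 over 1161 bp. It ranked 10 of 1623 in the whole list, and its nearest neighbour was 14.2 kb away. The next 2 were in the dense part of the arm. The peak at 5936070 to 5937249 scored 786.97 over 1180 bp, and that at 5465988 to 5466806 scored 668.71 over 819 bp. The fourth, at 14157819 to 14159128 with a score of 661.04 and 1310 bp, had a smaller companion 1.41 kb away. The fifth, at 1950972 to 1952830, was the broadest of these peaks at 1859 bp, scored 645.31 and stood 103 kb from its nearest neighbour.

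A further 7 peaks completed the 12 highest. They were 6207693 to 6208959 with a score of 617.46, 16472066 to 16472791 with 607.85, 20432046 to 20432723 with 518.08 and 22261226 to 22262113 with 513.4. The last 3 were 5579691 to 5580563 with 476.74, 10692996 to 10693946 with 460.8 and 9551635 to 9552527 with 457.91. Of the 12, 5 were proximal and 7 distal, and 4 lay in the dense part between 5000001 and 7000000. Among all 2L peaks, 35.9% were proximal and 23.1% lay in that dense part. Of the 12, 3 had another peak within 5 kb, near the 24.4% of all 2L peaks, and the distance to the nearest neighbour among the 12 ran from 0.845 to 118 kb. High scores were thus found in crowded and in empty surroundings alike. Over all 234 peaks, score and distance to the nearest neighbour had a Spearman's rho of 0.091, over peaks that share 1 library.

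The highest peaks on the arms set beside it scored more. The highest score was 996.66 on 2L, 1103.6 on 3L, 2102.67 on 3R and 1759.86 on X. At the other end, the lowest scores of 2L were 50.07 at 1364953 to 1365243, 50.08 at 6822489 to 6823099 and 50.19 at 18141751 to 18142409. The first of these was also the narrowest peak of the arm, at 291 bp. Next came 2 peaks of 292 bp, 1353024 to 1353315 with a score of 58.02 and 14144210 to 14144501 with 61.95. The first peak of the arm, 183725 to 184355, scored 135.24, and the last, 22404623 to 22405016, scored 133.55.

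Peak widths on 2L ran from 291 to 2244 bp, with a median of 630 bp (order-statistic 95% interval 598 to 676) and quartiles of 506 and 811 bp. The median was 648 bp on 3L, 680 bp on 3R and 614 bp on X, and only that of 3R lies outside this interval. The narrowest peak was 291 bp on 2L, 215 bp on 3L, 233 bp on 3R and 235 bp on X. Width went with score: the median width on 2L was 529.5 bp under a score of 100, 630 bp from 100 to 200, 873 bp from 200 to 500 and 1161 bp from 500. Spearman's rho of width and score over the 234 peaks was 0.57, beside 0.59 on 3L, 0.52 on 3R and 0.72 on X. Both values were computed from the same reads.

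The 5 widest peaks of 2L were not among its 12 highest. They were 8826510 to 8828753 with 2244 bp, 6093000 to 6095135 with 2136 bp, 6528241 to 6530321 with 2081 bp, 19580699 to 19582579 with 1881 bp and 10390249 to 10392109 with 1861 bp. Their scores were 300.09, 207.65, 334.62, 394.77 and 99.96. The last of them ranked 123 of 234 by score, with a score below the median of the arm, while its width ranked 5.

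**Figure D4:**
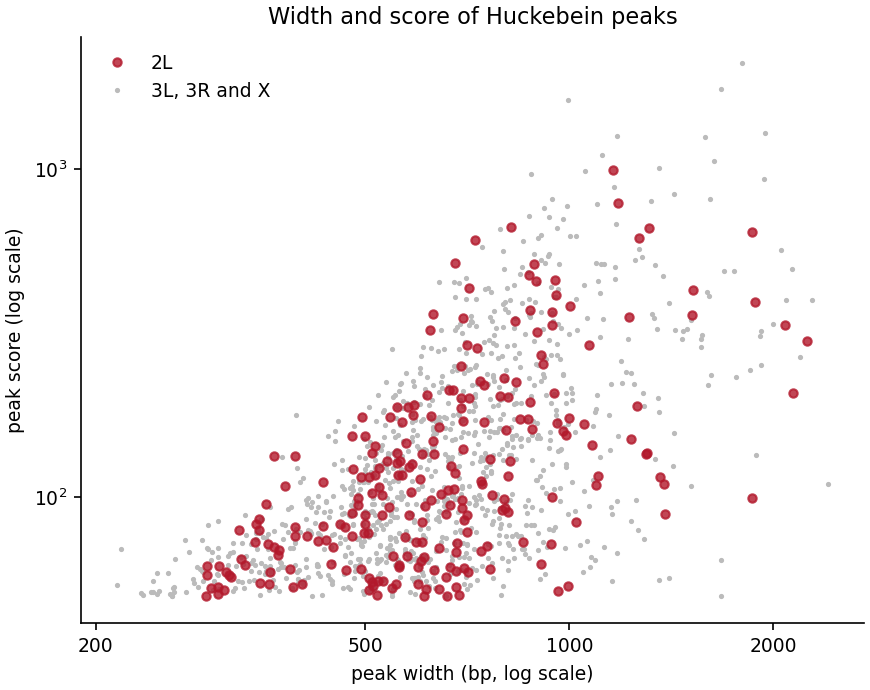
Each point is 1 peak, by width (bp) and score, both on log axes, with 2L in red and 3L, 3R and X in grey. The 234 points of 2L follow the same rising band as the others, from 291 bp at a score of 50.07 to 1161 bp at 996.66, with a few wide peaks of middling score such as that of 1861 bp at 99.96.

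Most peaks of 2L stood alone. With peaks joined where neighbouring midpoints were up to 5 kb apart, 177 of the 234 (75.6%) were single, 44 formed 22 pairs and 13 formed 4 larger groups. Single peaks made up 70.4% on 3L, 79.9% on 3R and 64.5% on X. Another peak lay within 5 kb for 24.4% of the peaks of 2L (57 peaks, Clopper-Pearson 95% interval 19.0 to 30.4%), 29.6% on 3L (24.4 to 35.4%), 20.1% on 3R (16.2 to 24.5%) and 35.5% on X (30.7 to 40.6%). Members of a pair or group count together in this share, so the peaks are not independent and these intervals are too narrow. The median distance to the nearest neighbour was 19.98 kb on 2L, 15.5 kb on 3L, 17.6 kb on 3R and 8.29 kb on X.

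The members of a pair on 2L often differed in score. The higher peak of a pair scored a median of 1.84 times the lower one, with a range of 1.06 to 11.6, and 10 of the 22 pairs differed by 2 times or more. The higher peak was also the wider one in 18 of 22 pairs, beside 26 of 35 on 3L, 22 of 30 on 3R and 29 of 40 on X. Width also went with score over all peaks of 2L (Spearman's rho 0.57). The most unequal pair was 16472066 to 16473427, where a peak of score 607.85 and 726 bp was followed after 327 bp by one of 52.32 and 309 bp. At 19464529 to 19466074, peaks of 382.28 and 76.51 were 68 bp apart, and at 14156824 to 14159128 peaks of 661.04 and 153.55 were 517 bp apart. The most equal pairs were 3013695 to 3015546, with 106.44 and 100.59, and 1134588 to 1139042, with 107.48 and 101.5. In 10 of the 22 pairs the peaks lay less than 1 kb apart, edge to edge, and the median gap was 1457.5 bp. The median ratio of scores within pairs was 2.31 on 3L (35 pairs), 1.38 on 3R (30 pairs) and 2.12 on X (40 pairs). Differences of 2 times or more were found in 18 pairs on 3L, 7 on 3R and 22 on X. Whether paired peaks differ more or less in score than peaks that lie apart was not tested.

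Groups of 3 or more close peaks numbered 4 on 2L, as on 3L and 3R, against 14 on X. The only group of 4 lay at 5031213 to 5035618, in the dense part, with scores of 113.58, 54.66, 85.56 and 70.65 within 4.41 kb. The group at 6970108 to 6978362 had 1 high and 2 low peaks, at 354.21, 60.41 and 68.48 over 8.26 kb. The group at 10686740 to 10693946 had the reverse order along the arm, at 79.77, 85.97 and 460.8 over 7.21 kb. At 16783013 to 16786666, 3 low peaks of 54.44, 61.45 and 55.49 lay within 3.65 kb, between the 2 longest stretches without a peak. Thus 2 of the 4 groups had a single high member, and the other 2 had no member at or above 200. The largest group on 3L had 4 peaks, on 3R 5 and on X 8.

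**Figure D5:**
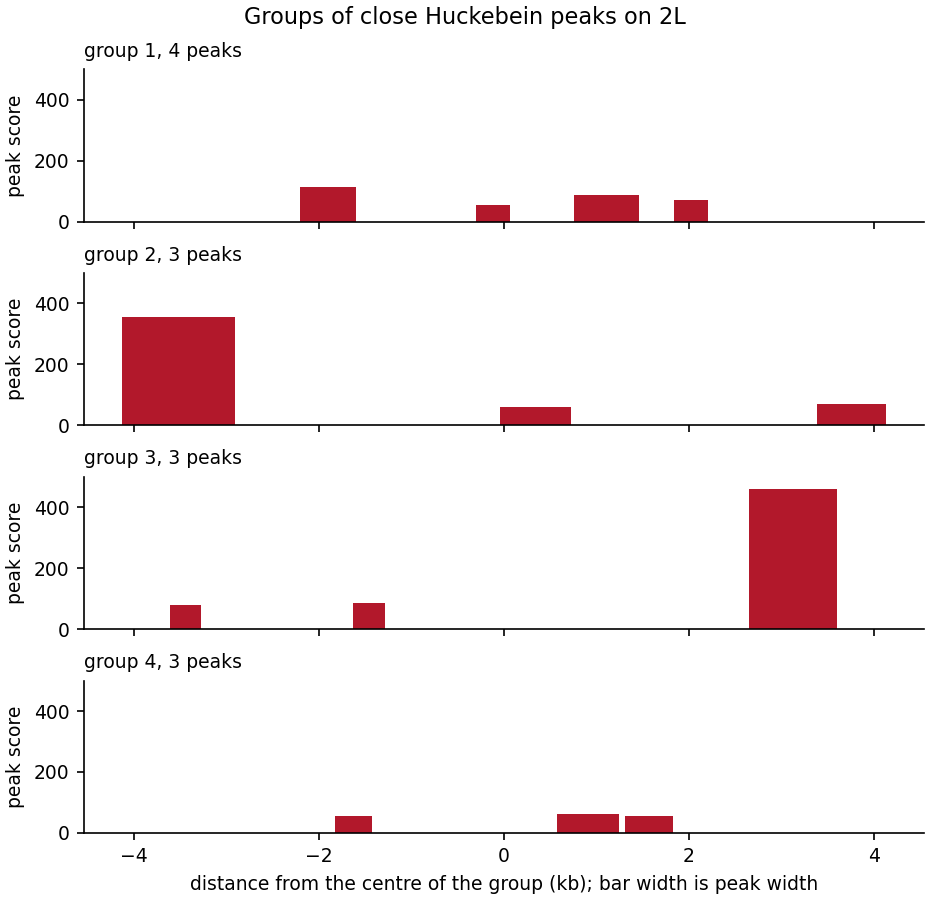
The 4 groups of 3 or more close peaks on 2L are drawn in order from the telomere, each peak as a bar at its distance from the centre of the group (kb), with the bar's width to scale and its height the peak score. Groups 2 and 3 have 1 bar of 354.21 and 460.8 beside bars under 100, and no bar of groups 1 and 4 exceeds 113.58.

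On a wider scale, the densest 100 kb of 2L held 8 peaks, from 5015811 to 5103358, and included the group of 4. The 8 scores lay between 54.66 and 324.01, with their median at 92.0. The next windows held 7 peaks each, at 1016674 to 1102715 with scores up to 205.92 and at 6739713 to 6832682 with scores up to 219.44. The 3 windows together held 22 peaks, 9.40% of the arm. The densest 100 kb held 8 peaks on 3L, 9 on 3R and 13 on X.

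At the other extreme, 30 peaks of 2L (12.8%) were more than 100 kb from their nearest neighbour, against 9.64% on 3L, 8.04% on 3R and 4.51% on X. These 30 had a median score of 89.0, and 8 of them (26.7%) scored 200 or more, against 20.5% of all 2L peaks. The most isolated was 21213898 to 21214544, with a score of 102.75 and its nearest neighbour 432 kb away. It was followed by 16046835 to 16047572, at 425 kb with a score of 226.71, and 21875868 to 21876391, at 268 kb with 122.79. These 3 each bounded a long stretch of the proximal side. On the distal side, 8487066 to 8487723 was 237 kb from its neighbour and 4100676 to 4101205 was 217 kb from its own, with scores of 57.16 and 55.5.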

How the data were processed

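The deposited file lists 1 interval and 1 score per peak for the ChIP sample; per the file headers, the authors made it with MACS, a peak caller. The submitters' processing notes name Bowtie and the build BDGP5. No source used here gives the MACS version and threshold, how repeat-mapped reads and the input were used, or how the replicates were combined. The input sample was not analysed here.

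Starts were read as 0-based and are printed 1-based; width is the end minus the 0-based start. Distances are between midpoints unless edges are named. A stretch without a peak runs from the edge of 1 peak to that of the next, so sequence beyond the outermost peaks is not counted. The span of an arm runs from its first to its last peak. Arm 3R is numbered from the centromere and was turned round. Peaks of 1 list are not replicates, so no test was made; intervals are exact binomial (Clopper-Pearson) or order-statistic at 95%, with exact Poisson limits for the density and Fisher z limits for the correlation when alternatives were judged. The position measures were checked on a constructed list with known answers. Python 3.11.15, NumPy 2.4.6, SciPy 1.17.1, pandas 2.3.3 and matplotlib 3.10.9 were used.

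The regions named by rule are the 12 highest, 5 widest, 3 narrowest, 3 lowest, 5 most isolated, first and last peaks of 2L, its stretches of 500 kb or more, its groups of 3 or more peaks and its 3 densest 100 kb windows; on 3L, 3R and X they are the highest peak and the longest stretch. The dense bins, the blocks between the stretches, the pairs and the longest distal stretch were named after their values were seen. The members and rules were chosen with earlier results of these data known. Nearest genes and sequence words were planned for an annotation and a genome of the build and were not analysed here. The gene table used for the identity of hkb and sna describes Release 6 and gave no positions.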

Additional observations from a re-analysis of the deposited data

Results flagged for a closer look

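A single peak lay on 2LHet, the assembled heterochromatin of the same arm, and is given here because it is a signal in sequence outside the 2L arm. It ran from 135080 to 135472 in the coordinates of 2LHet, with a score of 101.6 and a width of 393 bp. Set among the 234 peaks of 2L it would rank 120 by score, while 32 of them were no wider. It is 1 peak and was not tested.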

How the results depend on the processing

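Of 29 alternatives to 11 results, 12 stayed within the 95% interval of the value, or within 1.5 times the count, and 17 moved. Some of these moves were fixed in advance. A list cut at the median score must hold fewer peaks with higher scores, and other limits or bin sizes change what is counted. No paired analysis was possible because 1 list was analysed, for a sample whose title names both replicates. Restricted to peaks scoring at least the list median, 2L had 114 peaks, 5.13 per Mb, with a median width of 741.5 bp, a median score of 175.89, 42.1% scoring 200 or more, 14.0% with a neighbour within 5 kb, 7 stretches of 500 kb or more and 0 groups of 3. Its proximal share was then 37.7%. The larger number of long stretches on 2L than on 3L and 3R thus held for the full list and not for the restricted one, where 3L and 3R had 10 each. With peaks less than 1 kb apart joined, 15.4% had a neighbour within 5 kb and 2 groups of 3 were left. The share with a neighbour was 11.97% at a limit of 2 kb and 35.04% at 10 kb. A limit of 250 kb gave 21 stretches, joining up to 10 kb gave 9 groups, and bins of 0.5 Mb gave 3 empty bins. Without the 2 densest bins, both distal, the proximal share was 46.7%, where an even spread over the remaining length would give 54.9%. Computed the same way, it was 47.9% on 3L, 51.1% on 3R and 46.1% on X. An even spread would give 50% on 3L, 50.3% on 3R and 50% on X, so each share is read against its own arm's value. Without the long stretches the density was 12.5 per Mb, above the 12.3 of 3L, so 2L was then not the least dense arm. This change of rank follows from the larger share of its length that was removed. These 2 settings were chosen after seeing the data. The read depth is unknown, so a stretch without a peak cannot be told apart from one with too few reads for a call.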
